A study of Mus musculus with 119 samples.

Results

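The genes described here encode the proteins of the cytosolic ribosome in the mouse brain, apart from Rps4l, which is annotated as a transcribed processed pseudogene. They were taken as the gene symbols that both count tables list and that follow the usual pattern for proteins of the 40S subunit (Rps and a number) or the 60S subunit (Rpl and a number), together with Rplp0, Rplp1, Rplp2 and Rpsa, leaving out pseudogene names that end in -ps. Among the 55291 gene rows, 86 symbols followed the pattern, and the 80 with a mean of at least 1 CPM (counts scaled to a common library total) over all 119 libraries were kept. By name they comprise 32 genes of the 40S subunit, Rps4l included, 45 of the 60S subunit and 3 of the P stalk. Of the 80, 79 are annotated as protein coding. The 6 symbols below the limit were Rpl6l at a mean of 0.924 CPM, Rpl3l at 0.367, Rpl32l at 0.0689, Rps12l1 at 0.0497, Rpl39l at 0.0358 and Rpl10l at 0. Of these, Rpl3l, Rpl10l and Rpl39l are annotated as protein coding. The 3 genes just above the limit were Rps27l at 6.84, Rps4l at 22.6 and Rpl7l1 at 36.7 CPM. No library had a value of 0 for any of the 80, and all 80 passed the low-count filter in every comparison.

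The ribosome joins amino acids into protein. Its small subunit reads the messenger RNA, its large subunit forms the peptide bonds, and the P stalk on the large subunit recruits the elongation factors. Ribosomal protein messenger RNAs are short and abundant, and most begin with a run of pyrimidines, the 5′ terminal oligopyrimidine (TOP) motif, through which the kinase mTOR sets how strongly they are translated. In neurons, protein synthesis near synapses is needed for lasting changes in synaptic strength.

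The study asked how repeated exposure to Δ-9-tetrahydrocannabinol (THC, the main psychoactive compound of cannabis) in adolescence alters the brain transcriptome. Female and male mice received THC at 10 mg/kg or vehicle by intraperitoneal injection once a day from postnatal day 28 to 48, and were tested in behavioral assays after a drug-free interval before tissue was collected. The labels give 11 weeks as the age and C57BL/6J as the strain, whereas the methods of the study name the C57BL/6NCrl substrain. RNA came from punches of the prefrontal cortex (PFC), dorsomedial striatum (DMS, labelled as dorsolateral), nucleus accumbens (NAc), ventral tegmental area (VTA) and amygdala (Amy). Each region, sex and treatment had 6 libraries, except for the VTA of vehicle-treated males with 5. All mice, controls included, were injected and behaviorally tested. The labels do not tie a library to a mouse. By the methods of the study each mouse gave a library per region, so regions share animals, and the comparisons of regions treated punches of the same mice as independent libraries. All values below refer to punched tissue, in which fewer cells of a type and less RNA per cell cannot be told apart.

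Depth ranged from 3091000 to 77042100 counts per library with a median of 22092600. The summed level of 10 cortical projection neuron markers was highest in PFC (4920 to 5861 CPM), that of 10 medium spiny neuron markers in DMS (7358 to 10833 CPM), and that of 10 dopaminergic neuron markers in VTA (1711 to 5510 CPM), so the region labels matched these markers. In the amygdala 2 libraries went against their sex labels. The library labelled female Amy THC FTL_344 held 0.295 CPM of Xist and 140 CPM over 4 Y-linked genes, whereas the library labelled male Amy THC FTL_356 held 475.8 and 0.361 CPM. The other 59 libraries labelled female held 250 to 1152 CPM of Xist, and the other 58 labelled male held at most 3.29. Both are kept as labelled below. Some edgeR results of the ribosomal protein genes for THC, sex and their interaction in the Amy are also given without them. Results from DESeq2, cell type markers, other gene lists, coding lengths and comparisons of regions that include these libraries are given with them only.

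Promoter sequences from RefSeq (build GRCm38.p6) were matched by symbol for 59 of the 80 genes. A run of at least 8 pyrimidines within 50 bases of the annotated start on the coding strand was present in 50 of these 59 genes (84.7%), compared with 39.3% of all 27025 genes with a promoter sequence and 37.5% of the 13156 that also passed the low-count filter over all libraries. The windows below belong to the genes on which the comparisons turn. Each holds 30 bases on the coding strand, 5′ to 3′, with the longest run of pyrimidines in capitals. Rps15a and Rps28 had the smallest p for THC in the female Amy and the male VTA, Rpl38 the lowest estimate in the female Amy, Rps27 the highest estimate in the male VTA, Rpl31 the largest difference between DMS and PFC, Rps6 encodes the target of S6 kinase, and Rpl7l1 is a paralog at a low level.
Rps15a, chr7:118116143-118116172, minus strand: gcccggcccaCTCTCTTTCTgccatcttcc
Rps27, chr3:90213632-90213661, minus strand: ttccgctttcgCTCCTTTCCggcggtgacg
Rpl38, chr11:114668568-114668597, plus strand: ggaagcctcgTTCTTTCCCCgttctcttcg
Rpl31, chr1:39367824-39367853, plus strand: ctcgccacaCCTCTTCCTCCTCgcctcccc
Rps6, chr4:86857349-86857378, minus strand: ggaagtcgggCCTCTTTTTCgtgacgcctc
Rps28, chr17:33824567-33824596, minus strand: tctgtcccgaggaTTCCTgggtaccgcgtg
Rpl7l1, chr17:46782671-46782700, minus strand: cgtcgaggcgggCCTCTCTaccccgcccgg
The runs of Rps27, Rpl38 and Rps6 span or abut the annotated start, beginning 2, 2 and 1 bases before it. Those of Rps15a, Rpl31, Rps28 and Rpl7l1 begin 15, 18, 21 and 32 bases before it and end upstream of it. The run of Rpl31 has 13 pyrimidines, while those of Rps28 and Rpl7l1 have 5 and 7. The share of 84.7% includes runs on either side of the start, so it is not a share of genes with a TOP motif. Within the whole promoter window of 250 bases before and 50 bases from the start, CCGGAAG on either strand was found in 40.7% of the 59 genes (9.93% of all genes with a promoter sequence and 16.8% of those past the low-count filter), AAGATGGC in 10.2% (3.19% and 4.46%) and TATAAA in 11.9% (15.7% and 9.58%, thus between both backgrounds). These matches describe letters only.

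Levels of the 80 genes spanned more than an order of magnitude once divided by transcript length. Rplp1, an acidic protein of the P stalk, stood highest at 732 CPM per kb of annotated transcript. It was followed by Rps15 at 521, Rps14 at 458, Rpl13a at 420 and Rpl3, which lies near the catalytic center, at 398. The lowest were Rps27l at 13.6 and Rpl7l1 at 14.03, paralogs of Rps27 and Rpl7, then Rps15a at 22.3, Rps20 at 23.5 and Rps4l at 28.2. The place of Rps15a and Rps20 followed from long annotated transcripts of 5130 and 3706 bases, as per kb of coding sequence they stood at 292.9 and 243.7 CPM, ranks 50 and 66 of the 79 with a coding sequence. By that measure Rpl41, which encodes a peptide of very few residues, was highest at 2495 CPM per kb.

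The genes with a paralog were low beside their parent. Rpl22l1, the paralog of Rpl22, had 84.5 CPM per kb of transcript against 148.5 for Rpl22. Rps27l had 13.6 against 307.2 for Rps27, and Rpl7l1 had 14.03 against 179 for Rpl7. Rps4l, annotated as a transcribed processed pseudogene on chromosome 6 (148354656 to 148355598, plus strand), had 28.2 against 207 for Rps4x, its X-linked counterpart. Expected counts split reads among similar copies. Of the values of the 80 genes 84.3% were not whole, compared with 11.0% over the 18932 genes past the low-count filter, and the share was 0% for Rps4l and Rpl7l1 and 0.84% for Rps27l.

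Ribosomal protein genes took the smallest share of counts in the PFC and larger shares in the other 4 regions. The 80 genes together held 0.943% ± 0.054 of all counts in PFC (SD, n = 24), 1.51% ± 0.144 in DMS (n = 24), 1.44% ± 0.093 in NAc (n = 24), 1.38% ± 0.277 in Amy (n = 24) and 1.52% ± 0.165 in VTA (n = 23). Every PFC library (0.868% to 1.07%) lay below every DMS library (1.07% to 1.81%). The mean level was lowest in the PFC for 75 of the 80 genes and highest in the DMS for 49 and in the VTA for 26. PFC and DMS were deposited in a different table from NAc, Amy and VTA, so levels across the tables are set side by side without a test. The spread was widest in the Amy, where FTL_338 (labelled female vehicle) reached 2.18% and FTL_356 stood at 1.00%.

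**Figure D1:**
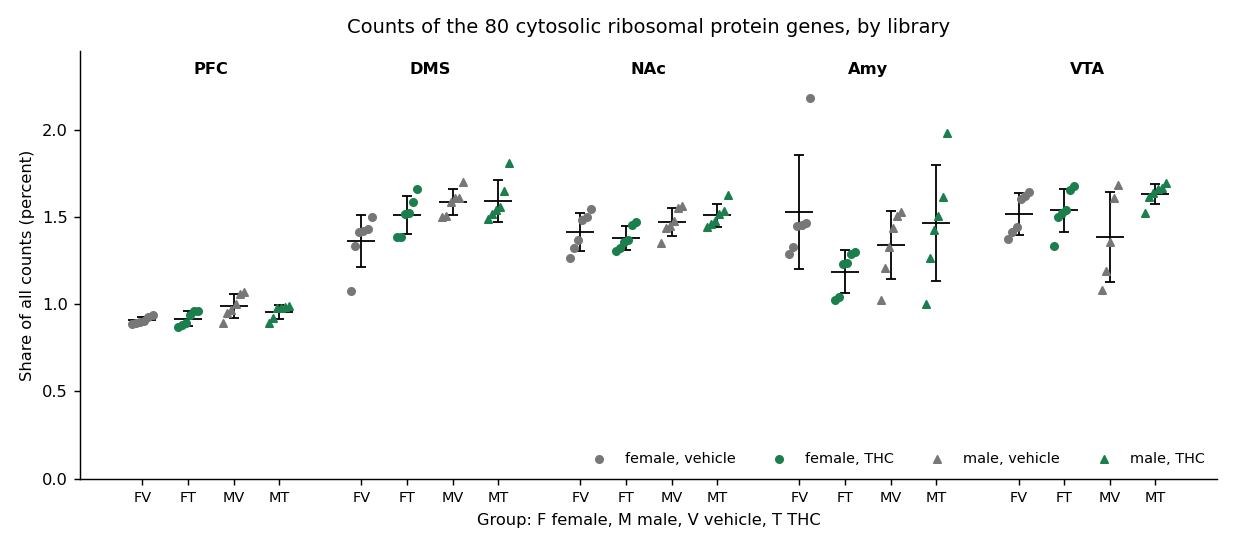
Share of all counts held by the 80 cytosolic ribosomal protein genes in each of the 119 libraries (y axis, percent), by region, sex and treatment (x axis). Points are libraries, black marks are group means and error bars are SD. PFC libraries lie between 0.868% and 1.07%, and the female Amy vehicle library FTL_338 is the highest of all at 2.18%.

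Between DMS and PFC, which share a table, 68 of the 80 genes were higher in DMS by at least 0.4 on the log2 scale at an adjusted p below 0.05 and 0 were lower. Over all genes tested 26.6% were called higher in DMS. The median log2 difference of the 80 was 0.61, compared with 0.02 over all 17442 genes. Of the 32 genes of the 40S subunit 30 were called, as were 36 of 45 of the 60S subunit and 2 of 3 of the P stalk. The 12 that were not called were Rpl4, Rpl5, Rpl6, Rpl7a, Rpl7l1, Rpl15, Rpl21, Rpl22, Rpl36a, Rplp0, Rps15a and Rps24.

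The largest differences belonged to Rpl31, Rpl30, Rps19 and Rps27. Rpl31, a 60S protein next to the exit tunnel, had 202 ± 21.1 CPM in DMS and 93.1 ± 6.28 in PFC (SD, n = 24 each), a log2 difference of 1.10 ± 0.04 (SE). Rpl30 differed by 1.00 ± 0.04, Rps19, a gene mutated in Diamond-Blackfan anemia, by 0.99 ± 0.04, and Rps27 by 0.96 ± 0.04. In each of these 4 genes all 24 DMS libraries lay above all 24 PFC libraries. The stalk genes Rplp1 and Rplp2 differed by 0.90 ± 0.04 and 0.79 ± 0.03, whereas their anchor Rplp0 differed by 0.34 ± 0.03. Rpsa and Rps27a, which encodes a fusion of ubiquitin with a 40S protein, differed by 0.77 ± 0.03 and 0.68 ± 0.04, and Rps6 by 0.41 ± 0.02.

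Only Rps15a and Rpl7l1 passed an adjusted p of 0.05 in the opposite direction, 2 of 80 (background 41.9% lower in DMS). Rps15a, a 40S protein, had 98.2 ± 7.12 CPM in DMS and 113 ± 4.28 in PFC, a log2 difference of -0.22 ± 0.02, and Rpl7l1 differed by -0.07 ± 0.02. Rpl22, the 60S protein whose tagged form is used to isolate ribosomes from chosen cells, differed by 0.06 ± 0.02, while its paralog Rpl22l1 differed by 0.63 ± 0.04. The cell types of these regions differed as well. The 10 oligodendrocyte markers were all called higher in DMS, with a median log2 difference of 1.13 and summed levels of 6138 to 8187 CPM against 1731 to 4340 in PFC, and so were 7 of 10 microglial and 9 of 10 endothelial markers. Astrocyte markers went the other way, with summed levels of 2232 to 2940 CPM in DMS against 2641 to 3097 in PFC, and the ranges overlapped. The part of these cell types in the difference was not tested.

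**Figure D2:**
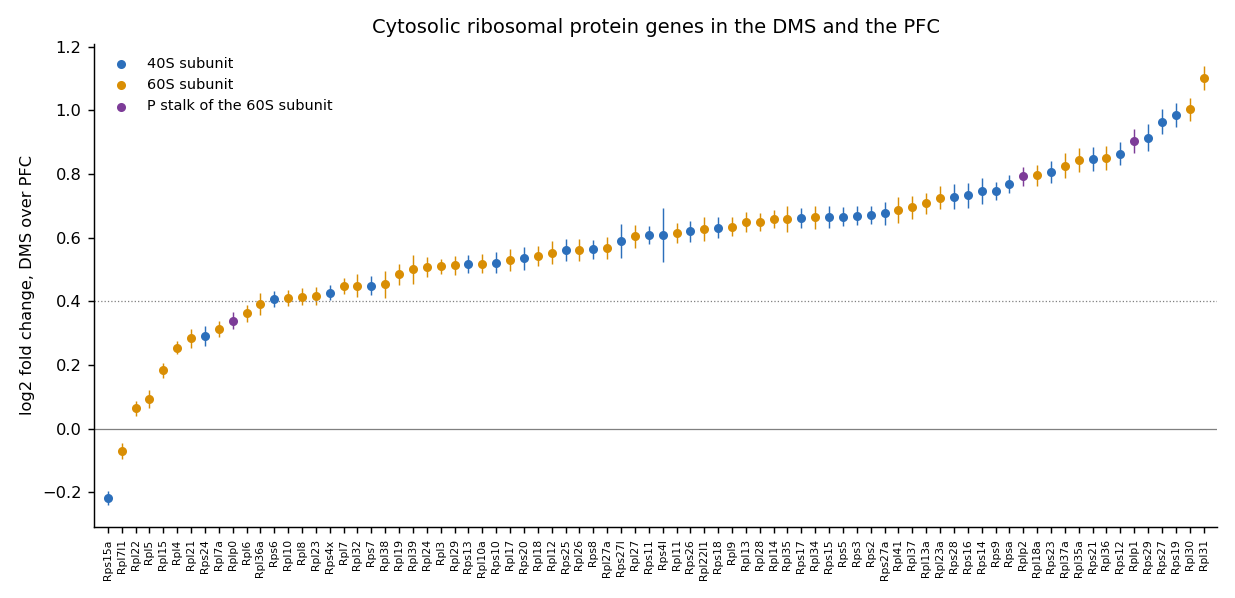
Difference between DMS and PFC (y axis, log2 fold change) of each of the 80 genes, ordered by its size (x axis) and colored by subunit, with the SE as error bars. The dotted line marks a log2 fold change of 0.4, above which 68 genes were called. Rpl31 is the highest at 1.10 and Rps15a the lowest at -0.22.

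Within the table of NAc, Amy and VTA few of the genes were past the fold limit. Amy and NAc differed by a median of -0.08, and the pseudogene Rps4l was the 1 gene called (background 27.6% of 18295 genes in either direction). Its level was 42.6 ± 8.58 CPM in Amy and 17.2 ± 3.74 in NAc (SD, n = 24 each), a log2 difference of 1.27 ± 0.07 with all Amy libraries above all NAc libraries. Without the fold limit 32 genes were lower and 3 higher in Amy at an adjusted p below 0.05 (background 36.1% and 30.2%), and with vehicle libraries alone the total of 35 fell to 3.

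Between VTA and NAc 28 genes were higher and 13 lower in VTA at an adjusted p below 0.05 (background 42.0% and 41.9%), with a median of 0.05, and 3 were called with the fold limit (background 54.4%). Rps27l, a gene induced by p53, was higher in VTA by 0.55 ± 0.08, with 9.42 ± 1.81 CPM (n = 23) against 6.34 ± 0.75. Rps4l was higher by 0.49 ± 0.07. Rps27, the parent gene of Rps27l, was lower in VTA at -0.41 ± 0.08, with 99.4 ± 17.6 against 129 ± 13.5 CPM, so this gene and its paralog went in opposite directions.

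Between VTA and Amy 45 genes were higher and 6 lower in VTA at an adjusted p below 0.05 (background 39.5% and 39.8%), with a median of 0.13, and 5 were called (background 46.0%). Rps27l (0.59 ± 0.08), Rpl28 (0.47 ± 0.04), Rpl23 (0.43 ± 0.05) and Rps6 (0.41 ± 0.05) were higher in VTA, and Rps4l was lower, at -0.78 ± 0.07. Rps6 had 289.3 ± 25.2 CPM in VTA and 220 ± 37.1 in Amy, and the ranges overlapped. For Rps4l 20 of 23 VTA libraries lay below all Amy libraries. Oligodendrocyte markers summed to 11500 to 20413 CPM in VTA, above every Amy library (1771 to 8092), and the part of cell composition in these differences was not tested.

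Sex was compared within each region over both treatments. In PFC 20 of the 80 genes were higher in males at an adjusted p below 0.05, in DMS 11 and in NAc 15, and none was lower. Over all genes 0.802% were higher in males by the same limit in PFC, 5.01% in DMS and 1.38% in NAc. The median log2 differences were small, 0.08, 0.12 and 0.10. In Amy and VTA 0 genes passed by edgeR or DESeq2 (background 0.0177% and 0.166%), and by edgeR 1 and 2 had an unadjusted p below 0.05 (background 6.06% and 7.19%). In Amy 0 genes also passed by edgeR without FTL_344 and FTL_356.

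With the fold limit the pseudogene Rps4l was the 1 gene called in PFC and in NAc (background 0.237% and 0.250%). In DMS 0 were called by edgeR or DESeq2 (background 2.64%). There edgeR gave 48 genes an unadjusted p below 0.05, all higher in males (background 14.0%). In PFC Rps4l had 12.5 ± 2.71 CPM in males and 9.05 ± 1.68 in females (n = 12 each), a log2 difference of 0.46 ± 0.12 at an adjusted p of 0.045, a call lost with no filter on low counts (adjusted p = 0.089 by edgeR). In NAc it had 19.8 ± 3.01 and 14.7 ± 2.43, a difference of 0.43 ± 0.09 at an adjusted p of 0.013. The ranges of the sexes overlapped in both regions.

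Of the 4 X-linked genes, Rpl39, which lines the exit tunnel, was higher in males in NAc by 0.26 ± 0.05 (adjusted p = 0.0037), with 46.2 ± 2.99 against 38.7 ± 3.72 CPM and 10 of 12 males above all females. Rps4x and Rpl10 were higher in males in DMS by 0.15 ± 0.04 and 0.14 ± 0.04 (adjusted p = 0.017 and 0.025). Rpl36a did not pass in any region, with differences from 0.03 to 0.13. The X-linked genes in Amy and VTA differed by at most 0.08, with standard errors of 0.05 to 0.13.

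THC was compared with vehicle separately in the 10 combinations of region and sex. By edgeR 0 of the 80 genes passed an adjusted p of 0.05 in any of the 10, and the counts at an unadjusted p below 0.05 follow with each comparison. Over all genes 2.72% passed in the female Amy, 0.0190% in the female DMS and 0 elsewhere. With DESeq2, the tool the study used, the count was 27 in the female Amy (background 8.21%). It was 1 in the male NAc (background 4.08%) and 0 in the other 8. The direction nevertheless differed between groups. All 80 genes had a log2 difference below 0 in the female Amy (background 51.4%), and all 80 had a difference above 0 in the male Amy (52.1%) and the male VTA (49.6%). In the female DMS 79 were above 0 (50.1%) and in the male PFC 75 below (49.2%). The other 5 groups had medians between -0.02 and 0.04. All 80 genes share the same libraries and moved together from library to library, so such a count is not 80 separate observations.

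**Figure D3:**
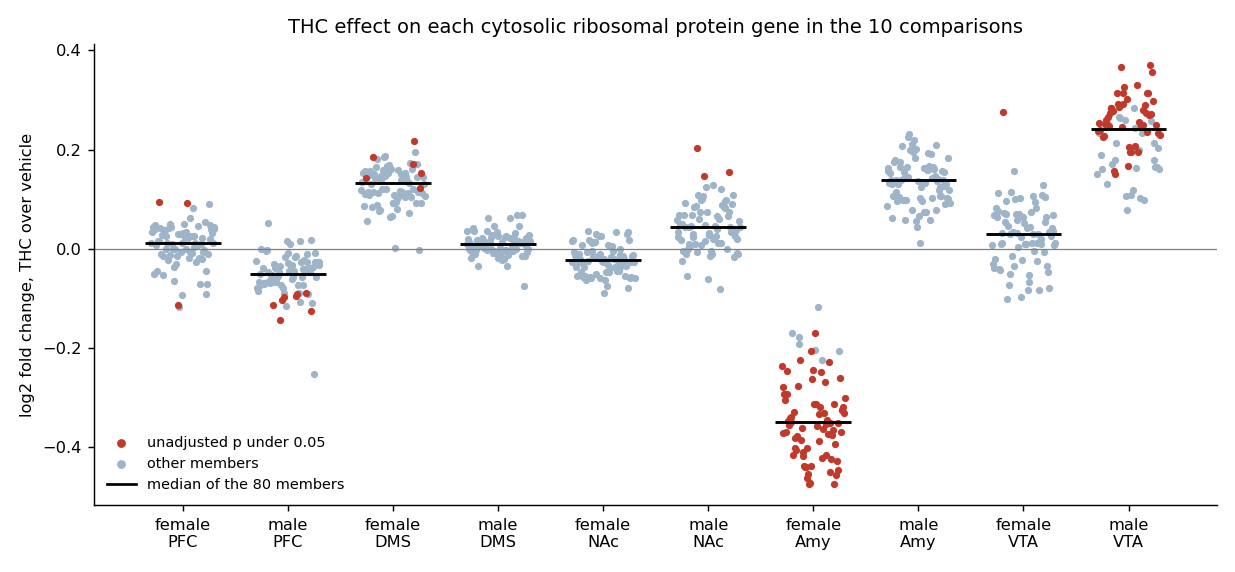
Log2 fold change of THC over vehicle (y axis) for each of the 80 genes in the 10 combinations of region and sex (x axis). Each point is a gene, red where its unadjusted p was below 0.05, and each black bar is the median of the 80. The female Amy has the lowest median at -0.35 and the male VTA the highest at 0.24.

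The female Amy showed the largest shift. The share of counts held by the 80 genes was 1.29% to 2.18% with a median of 1.45% in vehicle libraries and 1.02% to 1.302% with a median of 1.23% after THC. Median depth was 26933800 counts in vehicle and 44472600 in THC libraries, with overlapping ranges, and its part was not tested. The median log2 difference was -0.35, with a range from -0.12 to -0.47, compared with -0.01 over all 17003 genes. At an unadjusted p below 0.05 73 of the 80 genes were lower and 0 higher (background 11.1% lower). With the adjusted p and the fold limit 1.57% of all genes were called by edgeR, with 0 of the 80 ribosomal protein genes among them. Libraries were also simulated at this size, with randomly chosen genes changed and each gene varying independently. There edgeR recovered 28% of genes changed by 0.35 on the log2 scale and 96% of genes changed by 1.00. Recovery of the 80 ribosomal protein genes as a set, which moved together from library to library, was not tested.

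Rps15a had the smallest p. Its vehicle libraries held 122, 130 and 164 CPM (lowest, median and highest) and its THC libraries 102, 111 and 120. The groups did not overlap, and the log2 difference was -0.27 ± 0.07 (SE) at an adjusted p of 0.061. Rpl8 and Rpl22l1 were the other 2 genes whose groups did not overlap, 3 of 80 in all (background 4.15%). Rpl8, a 60S protein, held 274.5, 293.4 and 443.5 CPM in vehicle libraries and 231.6, 259.1 and 273.9 after THC. In all 3 genes 1 vehicle library stood far above the other 5.

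The largest estimates belonged to short genes. Rpl38, a 60S protein needed for axial patterning in the embryo, held 62.7, 72.4 and 122 CPM in vehicle libraries and 47.6, 60.2 and 63.8 after THC, a difference of -0.47 ± 0.14 (adjusted p = 0.091). Rps27 held 95.3, 111 and 178 CPM and 71.2, 94.0 and 97.6 CPM, a difference of -0.47 ± 0.14 (adjusted p = 0.079). Both genes overlapped between groups by a narrow margin. Rplp1 and Rplp2 differed by -0.39 ± 0.13 and -0.33 ± 0.12, and Rplp0, a common reference gene, by -0.12 ± 0.08, the smallest estimate of the 80. Rpsa differed by -0.30 ± 0.11, Rps6 by -0.32 ± 0.10, Rps27a by -0.39 ± 0.14, Rpl10a, the ribosomal tag of affinity purification mice, by -0.28 ± 0.11 and Rpl41 by -0.44 ± 0.16. Rpl22 differed by -0.17 ± 0.09 and Rpl22l1 by -0.42 ± 0.15. None of these passed the adjusted threshold by edgeR.

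By DESeq2, the tool the study used, 27 genes passed an adjusted p of 0.05 in the female Amy. The background was 8.21% of the genes to which DESeq2 gave an adjusted p. Of the 27, 13 also had a fold past the limit, all lower (background 3.39% in either direction). These were Rpl32, Rpl34, Rpl35a, Rpl36, Rpl36a, Rpl38, Rpl39, Rps12, Rps16, Rps23, Rps27, Rps28 and Rps29. Translation is among the pathways that the study reports for its differentially expressed genes in the female Amy. Library FTL_338 set much of the size of the shift. Without it the median was -0.22, 70 genes had an unadjusted p below 0.05, and 5 passed the adjusted threshold by edgeR, namely Rps15a (-0.20, adjusted p = 0.017), Rpl8, Rpl7, Rpl23a and Rpl5, none by 0.4. Without FTL_344, whose sex-linked genes went against its label, the median was -0.30 and 63 genes had an unadjusted p below 0.05. Without both the median was -0.18, 60 genes were below 0.05 and Rps15a passed the adjusted threshold (0.040). All 80 genes stayed below 0 in each of these fits.

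Markers of cell types also differed in the female Amy. The 10 cortical projection neuron markers had estimates above 0, 4 of them called higher after THC, with summed levels of 1773 to 2702 CPM in vehicle and 2735 to 3408 CPM in THC libraries, which did not overlap. The 10 oligodendrocyte markers had estimates below 0, with a median of -0.48 and 3 at an unadjusted p below 0.05 (2516 to 8071 against 2638 to 4716 CPM). The 8 tested markers of hypothalamus and medial amygdala also had estimates below 0, with a median of -0.84 and 7 below 0.05 (123 to 172 against 80.5 to 127 CPM). None of the oligodendrocyte, hypothalamic or medial amygdala markers was called. Over all genes 1.57% were called, and 11.1% were lower at an unadjusted p below 0.05. FTL_338 had the lowest cortical sum of the vehicle libraries and an oligodendrocyte sum of 4218 CPM, inside their range. It also had the highest choroid plexus sum of these libraries (1238 CPM, against 21.05 to 948 in the other 5) and the lowest astrocyte sum (2229 against 2803 to 3297 CPM), and its Xist level was 250 against 500 to 572 CPM. Choroid plexus markers were uneven in both groups, with 22.0 to 26.6 CPM in 4 THC libraries and 2289 and 3705 CPM in the other 2. Of these markers 5 were tested, all with estimates above 0 (median 1.18), and 0 had an unadjusted p below 0.05 by edgeR. The part of tissue composition in the ribosomal protein result was not tested.

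**Figure D4:**
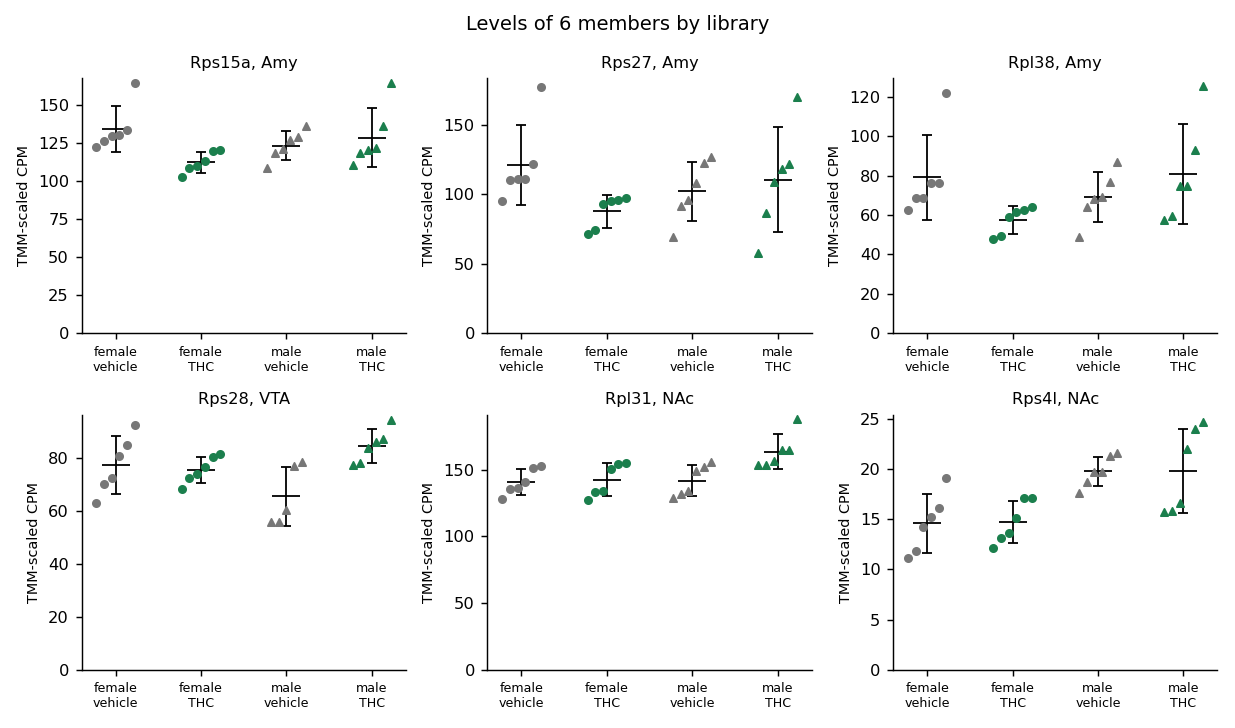
CPM (y axis) of Rps15a, Rps27 and Rpl38 in the Amy, Rps28 in the VTA, and Rpl31 and Rps4l in the NAc, by sex and treatment (x axis). Points are libraries, black marks are group means and error bars are SD. In the female Amy 1 vehicle library is far above the rest in all 3 genes, and for Rps28 the 5 male vehicle libraries spread from 56.0 to 78.4 CPM.

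In the male VTA the estimates had the opposite sign, and 0 genes passed the adjusted threshold by edgeR or DESeq2. The 5 vehicle libraries held shares of 1.08%, 1.19%, 1.36%, 1.61% and 1.69%, and the 6 THC libraries 1.52% to 1.69% with a median of 1.65%. The study left 1 male VTA library out as an outlier without naming it in the sources used here, and all 11 are kept. The vehicle libraries were spread widely, and 2 of them lay within the THC range. The median log2 difference was 0.24, with a range from 0.08 to 0.37, against 0.00 over all 17103 genes, and 49 of the 80 genes were higher at an unadjusted p below 0.05 (background 3.44% higher).

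Rps28, a small 40S protein near the messenger RNA exit, had the smallest p. It held 56.0, 56.1, 60.3, 76.9 and 78.4 CPM in the vehicle libraries and 77.5, 85.2 and 94.3 (lowest, median and highest) after THC. The groups overlapped by 1 vehicle library, and the difference was 0.36 ± 0.10 at an adjusted p of 0.82. Rpl38 held 58.7, 62.3, 69.6, 81.9 and 91.6 CPM, and 87.0, 90.1 and 102 after THC, a difference of 0.33 ± 0.10. The largest estimate was that of Rps27 at 0.37 ± 0.15. Rpsa differed by 0.23 ± 0.08, Rps6 by 0.17 ± 0.08, Rplp0 by 0.12 ± 0.09 and Rpl10a by 0.24 ± 0.09.

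The count of 49 rested on single vehicle libraries. It fell to 12 without FTL_369, to 14 without FTL_372 and to 22 without FTL_371, the library of 3090998 counts, and rose to 72 without FTL_370 and 78 without FTL_373. The median stayed between 0.17 and 0.33, and at least 79 genes stayed above 0. FTL_371 also had the lowest oligodendrocyte sum (11500 CPM) and the lowest dopaminergic sum of the group (2193 CPM). The 10 oligodendrocyte markers had estimates above 0 with a median of 0.11 and the 10 dopaminergic markers estimates below 0 with a median of -0.11, none at an unadjusted p below 0.05. Their part was not tested.

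In the male Amy the estimates of all 80 genes were above 0, with a median of 0.14 and 0 genes at an unadjusted p below 0.05 (background 1.16% higher). Rps2, a 40S protein at the messenger RNA entry, had the smallest p, with 331.7, 425.7 and 432.8 CPM in vehicle and 389.9, 446.5 and 564.3 CPM in THC libraries, a difference of 0.16 ± 0.09 (adjusted p = 1.00). The median was 0.03 without FTL_354 (share 1.98%, depth 8713204 counts), with 63 genes above 0, and 0.22 without FTL_356, the library that went against its sex label, with 6 genes at an unadjusted p below 0.05. Without the vehicle library FTL_347 the median was 0.07. Median depth was 28362500 counts in vehicle and 12766400 in THC libraries, the reverse of the order in the female Amy. The part of depth was not tested.

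In the female DMS 79 genes were above 0 with a median of 0.13, and 7 had an unadjusted p below 0.05 (background 3.73% higher). Rps4x held 178, 215 and 226 CPM in vehicle and 211, 227 and 241 CPM in THC libraries, a difference of 0.12 ± 0.05 (adjusted p = 0.51). The groups overlapped. The vehicle library FTL_285 stood apart, with a share of 1.07% against 1.34% to 1.499% in the other 5, cortical projection neuron markers at 2080 against 1267 to 1386 CPM and choroid plexus markers at 87.9 against 12.8 to 18.1 CPM. Without it the median was 0.06 and 2 genes were below 0.05. Leaving out single libraries gave 0 (without FTL_290 or FTL_291) to 17 (without FTL_289) genes below 0.05.

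In the male PFC 75 genes were below 0 with a median of -0.05, and 8 had an unadjusted p below 0.05, all lower (background 1.76% lower). Rpl35a held 65.1, 73.8 and 80.2 CPM in vehicle and 61.1, 67.9 and 70.1 CPM in THC libraries, a difference of -0.14 ± 0.05 (adjusted p = 1.00). The count was 2 without FTL_274 or FTL_276 and 38 without FTL_277, and the median ran from -0.08 to -0.03 with single libraries left out. In the female PFC 2 genes were higher and 1 lower at an unadjusted p below 0.05 (background 5.84% in either direction), with a median of 0.01. Rpl18 held 65.9, 69.0 and 71.0 CPM in vehicle and 67.7, 74.0 and 78.3 CPM in THC libraries, a difference of 0.09 ± 0.04 (adjusted p = 0.84).

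In the male NAc 3 genes, Rpl31, Rpl38 and Rps27, were higher at an unadjusted p below 0.05 (background 8.10% higher), and the median was 0.04. Rpl31 held 128, 142 and 156 CPM in vehicle and 153, 161 and 188 CPM in THC libraries. The ranges overlapped by 1 vehicle library, and the difference was 0.20 ± 0.06 at an adjusted p of 0.21 by edgeR and 0.048 by DESeq2. The count rose to 17 without FTL_323. In the female NAc 63 genes were below 0 (background 50.5%) with a median of -0.02 and 0 at an unadjusted p below 0.05 (background 4.61%). Rpl7 held 203, 216 and 242 CPM in vehicle and 193, 205 and 225 CPM in THC libraries, a difference of -0.09 ± 0.05 (adjusted p = 0.99).

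In the female VTA the median was 0.03, and Rpl22l1 alone had an unadjusted p below 0.05 (background 4.64% higher). It held 32.5, 38.7 and 46.9 CPM in vehicle and 37.9, 50.2 and 53.0 CPM in THC libraries, a difference of 0.28 ± 0.10 (adjusted p = 0.51). In the male DMS the median was 0.01 with 0 genes at an unadjusted p below 0.05 (background 1.93%). Rps24 held 186, 189 and 213 CPM in vehicle and 191, 197 and 227 CPM in THC libraries, a difference of 0.07 ± 0.05 (adjusted p = 1.00). In both comparisons the groups overlapped.

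Whether the THC difference itself depended on sex was tested as an interaction within each region. In the Amy all 80 estimates were higher in males (background 51.4%), with a median of 0.49, and 72 had an unadjusted p below 0.05 (background 9.18% higher). The smallest adjusted p was 0.25, and 0 of the 80 were called by edgeR or DESeq2 (background 0.00590%). The count was 31 without FTL_338, 34 without FTL_354 and 38 without FTL_347. Without FTL_344 and FTL_356 it was 77 and the median 0.54. Median depth was higher in THC than in vehicle libraries in the female Amy and lower in the male Amy. The part of depth in the interaction was not tested. In the VTA 79 estimates were above 0 (background 50.4%) with a median of 0.20, and 16 had an unadjusted p below 0.05 (background 2.55% higher). That count ran from 7 without FTL_372 to 54 without FTL_373. The other 3 regions had 4, 0 and 2 genes below 0.05 in PFC (lower), DMS and NAc (higher), against 5.87%, 5.90% and 11.0% of all genes in either direction.

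Other parts of the translation machinery were read from lists of genes outside the 80. In the female Amy the 6 tested genes of other cytosolic ribosomal proteins, among them Fau and Rps3a1, all had estimates below 0 with a median of -0.35, with 4 at an unadjusted p below 0.05. Of 15 elongation factors and other TOP messenger RNAs 11 had estimates below 0, 5 of them at an unadjusted p below 0.05, and 2 were above 0 at that limit, with a median of -0.12. Npm1, which escorts ribosome precursors out of the nucleolus, had -0.28 ± 0.08, and the poly(A)-binding protein gene Pabpc1 had 0.20 ± 0.06. Of 13 subunits of initiation factor eIF3 10 were below 0, 3 of them at that limit (median -0.09). Of 25 ribosome biogenesis genes 15 were below 0, 4 of them at that limit (median -0.04). Over all genes 51.4% were below 0 and 11.1% were lower at that limit. Among 19 mTOR pathway genes Deptor, an inhibitor of mTOR, was the 1 at an adjusted p below 0.05 (background 2.72%), higher by 0.40 ± 0.08 (adjusted p = 0.020). It did not reach the fold limit.

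In the male VTA the 6 other cytosolic ribosomal proteins all had estimates above 0 (median 0.20, 5 at an unadjusted p below 0.05), 11 of 15 TOP messenger RNAs were above 0 with 3 at that limit, and 0 of 25 ribosome biogenesis genes reached that limit. Over all genes 49.6% were above 0 and 3.44% were higher at that limit. Between DMS and PFC, 3 of the 15 TOP messenger RNAs were called higher in DMS and 1 lower (background 26.6% higher and 24.5% lower), 0 of 13 eIF3 subunits were called, and 2 of 25 biogenesis genes were called higher and 1 lower. Eef1a1, the general elongation factor, differed by 0.58 ± 0.02 and its neuronal counterpart Eef1a2 by -0.63 ± 0.02. Of the mTOR genes 6 of 19 were called lower in DMS, against the background of 24.5%, among them Larp1, which binds the TOP motif, at -0.75 ± 0.02, and Rptor at -0.68 ± 0.02.

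Small nuclear genes of oxidative phosphorylation had estimates on the same side as the ribosomal protein genes in both THC comparisons, 0 of them at an adjusted p below 0.05 by edgeR. In the female Amy 40 of 40 were below 0 with 25 at an unadjusted p below 0.05 (median -0.28), and in the male VTA 40 of 40 were above 0 with 15 below 0.05 (median 0.17). Mitochondrial ribosomal protein genes were on the same side in 73 of 75 cases in the female Amy (26 below 0.05, median -0.18) and in 63 of 75 in the male VTA (13 below 0.05, median 0.07). Over all genes 51.4% were below 0 in the female Amy and 11.1% were lower at an unadjusted p below 0.05. For the male VTA 49.6% were above 0 and 3.44% were higher at that limit.

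Shorter coding sequences had larger differences in several comparisons, among them the female Amy, the male VTA and DMS against PFC. Over the 79 genes with a coding sequence the Spearman correlation of the THC log2 difference with coding length was 0.74 in the female Amy and -0.70 in the male VTA, given as a description since all points share the same libraries. In the female Amy the 20 shortest genes had a median of -0.44 and the 20 longest, with at least 612 bases, one of -0.27. In the male VTA these medians were 0.28 and 0.17. The correlation was -0.44 for DMS against PFC, with 0.71 and 0.44. Not every comparison had this pattern. The medians of the shortest and longest genes were -0.019 and 0.033 in the female PFC and -0.016 and -0.027 in the female NAc. Between Amy and NAc the correlation was 0.03.

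Short coding genes outside the ribosomal protein list were defined by a coding sequence of at most 600 bases and a transcript of at most 1000 bases. In the female Amy 643 such genes had a median of -0.23, and 12.8% lay above 0. In the male VTA 666 had a median of 0.13, and 84.4% lay above 0. In the male Amy and the female DMS the medians were 0.11 and 0.08, and 82.4% and 79.8% lay above 0. Between DMS and PFC the median of 668 such genes was 0.27, compared with 0.61 for the ribosomal protein genes. In these comparisons the other short genes had medians of the same sign and smaller size. This did not hold throughout. The sign was opposite in the female NAc, the male DMS and between Amy and NAc (0.04 against -0.08), and the median of the other short genes was larger in the female PFC, between VTA and NAc (0.29 against 0.05) and between VTA and Amy (0.21 against 0.13). The part of transcript length in the shift was not tested.

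**Figure D5:**
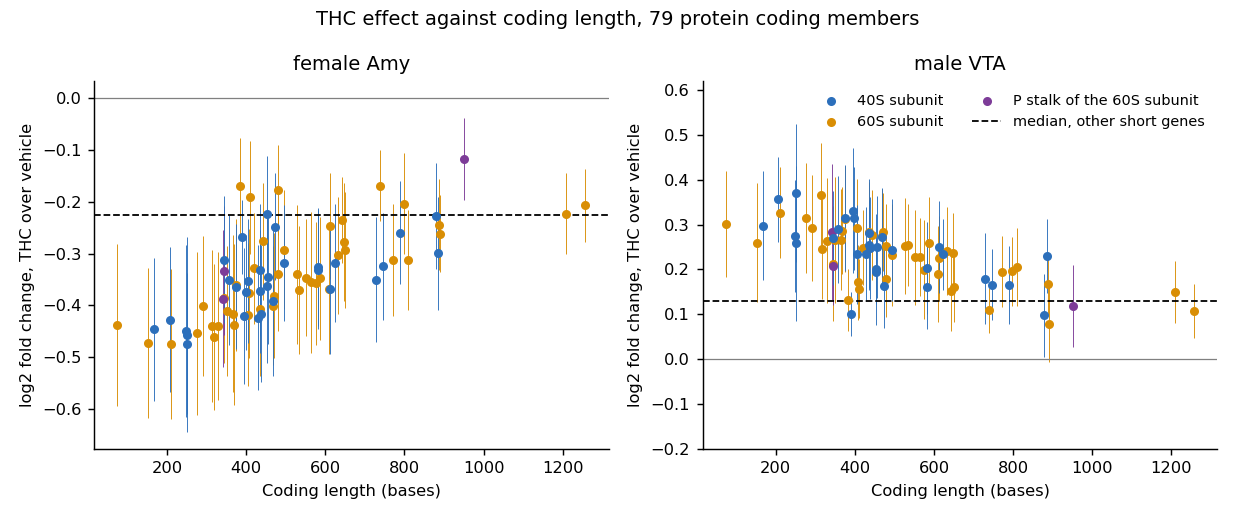
Log2 fold change (y axis) of each ribosomal protein gene with a coding sequence against its coding length in bases (x axis) in the female Amy and the male VTA. Points carry the SE as error bars and are colored by subunit, and the dashed line is the median of the other short genes. In the female Amy the shortest genes lie lowest (Spearman correlation 0.74), and in the male VTA they lie highest (-0.70).

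The 80 genes varied together within groups. After subtracting the group mean of each region, sex and treatment, the median correlation between pairs of the 80 genes over 119 libraries was 0.88, and 0.90 among the 40S genes. It was 0.83 for the oxidative phosphorylation genes, 0.42 for mitochondrial ribosomal proteins, 0.15 for the other TOP messenger RNAs and 0.04 for ribosome biogenesis genes. These are descriptions, as the points share their libraries. Rps15 followed the mean of the others most closely (0.98). The least coupled genes were Rps4l (0.24), Rps27l (0.60), Rpl7l1 (0.64), Rpl5 (0.67) and Rps15a (0.72). Rps15a was thus both the gene with the smallest p in the female Amy and among those that followed the common variation least.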

How the data were processed

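The authors trimmed paired reads of stranded, polyadenylated RNA libraries with cutadapt 2.9, aligned them to mm10 with STAR 2.7.3a and counted genes with RSEM 1.3.1. The deposited values are the authors' RSEM expected counts per gene, unnormalized, in 2 tables, 1 for PFC and DMS and 1 for NAc, Amy and VTA. RSEM shares reads among similar transcripts in proportion to its estimates, which matters for gene families with close copies. The study excluded 1 male VTA vehicle sample for low RNA quality. It also dropped 1 sequenced male VTA library as an outlier, which could not be told from the labels, so all 11 were used. Columns of per-library values not used numbered 0.

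Expected counts were rounded and tested with edgeR 4.0.16 (R 4.3.3; filterByExpr, TMM factors, robust quasi-likelihood F test), with Benjamini-Hochberg adjustment over all genes tested. Each THC comparison used its own libraries, sex and interaction used the 4 groups of a region, and regions were compared within a table. Following the limits of the study, a gene was called where the adjusted p was below 0.05 and log2 levels differed by 0.4 or more. The study applied these limits with DESeq2, which served here as an alternative to edgeR. Log2 changes came from the edgeR fit with its default prior count, and a prior count of 2 entered the log2 CPM values. CPM were scaled with TMM factors over all 119 libraries, and shares were unscaled percentages of all counts. Values after ± are SD for levels and SE for log2 differences. P-values measure the spread between libraries, which the labels do not tie to mice. DESeq2 1.42.0, other scaling and filters, added pseudogene counts and left-out libraries were alternatives. The test was checked on simulated data. Counts at an unadjusted p below 0.05, and fits without FTL_344 together with FTL_356 or FTL_338, were added after the data were seen.

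Genes named were those past an adjusted p of 0.05 for THC or otherwise the smallest p, the 4 largest regional changes each way, X-linked and called genes for sex, the 5 highest and lowest levels per kb, the 2 smallest p of other lists, and a fixed set (stalk genes, Rpsa, Rps6, Rps27a, Rpl10a, Rpl22, Rpl41, paralogs). Rpl38, Rps27 in the THC comparisons and Rpl8 were chosen after their values were seen. The members and lists were chosen with earlier results of these data known. Gene positions and lengths came from GENCODE for GRCm38, the build of mm10, and promoter sequences from RefSeq.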

Additional observations from a re-analysis of the deposited data

Results flagged for a closer look

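Within groups of 5 or 6 libraries, a single library stood apart by Dixon's criterion in 5 of 40 sets of values, where chance gives about 1 in 20. The share of counts of the ribosomal protein genes in the female Amy vehicle group was 2.18% in FTL_338, against 1.47% in the next library. Rps15a in the same group had a highest value of 164 CPM, against 133 in the next. Rps2 in the male Amy vehicle group had a lowest value of 331.7 CPM, against 404.1 in the next. Rps24 in the male DMS vehicle group had a highest value of 213 CPM, against 195. Rpl31 in the male NAc THC group had a highest value of 188 CPM, against 165. The depth of FTL_338 was 33660784 counts, within the range of its group (13018420 to 46044478).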

How the results depend on the processing

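No paired analysis was possible because the labels give each library its own number, shared by no other group, although the methods of the study take every region from each mouse. With DESeq2, 13 genes were called and 27 passed the adjusted threshold in the female Amy, and 1 passed in the male NAc. On simulated female Amy libraries, 4% of all calls by edgeR were false and 16.4% by DESeq2. These counts were drawn gene by gene with dispersions that edgeR had estimated, and without an outlying library. They therefore cannot show which tool errs more on the real libraries. The share of false calls among the 80 ribosomal protein genes was not tested. Leaving out 1 library gave 0 to 5 genes past the adjusted threshold in the female Amy and 1 without FTL_338 and FTL_344, and 12 to 78 genes at an unadjusted p below 0.05 in the male VTA. The median log2 difference of the 80 genes changed by less than the SD between libraries in all THC fits, 119 with a library left out and 61 others. That SD is of the log2 share within groups and includes the outlying libraries, so the limit was wide. Within it the median ran from -0.41 to -0.18 in the female Amy and from 0.03 to 0.22 in the male Amy. With no filter on low counts, 0 genes were called between sexes in PFC, 6 passed the adjusted threshold in DMS and 20 between Amy and NAc, where TMM factors computed without the ribosomal protein genes gave 22. With vehicle libraries only, which leaves fewer samples, 3 passed between Amy and NAc, 25 between VTA and NAc and 19 between VTA and Amy. The cause of the other changes was not tested. Called regional counts stayed within 1.5 times in every alternative.

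The sex differences of the X-linked genes in Amy and VTA changed sign when single libraries were left out. In Amy, Rpl10 ran from -0.0285 to 0.0614, Rpl36a from -0.00495 to 0.169, Rpl39 from -0.0415 to 0.130 and Rps4x from -0.0333 to 0.0783. In VTA, Rpl10 ran from -0.0163 to 0.0489, Rpl36a from -0.0121 to 0.0679, Rpl39 from -0.0472 to 0.0665 and Rps4x from -0.00942 to 0.0581. None of these passed a threshold in any fit. Depth ran from 3091000 to 60022100 counts within the male VTA vehicle group, and the lowest median depth of a group was 12766400 in the male Amy THC libraries.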
